A study of Mus musculus with 9 samples.

Results

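The genes described here write, copy or remove methyl groups on cytosine in DNA, except Mbd3, which encodes a nucleosome remodelling subunit. They are 8 of the 33207 genes named on the arrays: Dnmt1, Uhrf1, Dnmt3a, Dnmt3b, Dnmt3l, Tet1, Tet2 and Mbd3. They were chosen by gene name, not by a rule on measured values, but with earlier results of these data known. Every probe listed under the symbol or an older synonym was taken. The tables listed Tet1 as Cxxc6 and Tet2 as E130014J05Rik. Illumina beadchips of 1 colour, 9 in number, carried RNA of mouse embryonic stem (ES) cells, in a series on Wdr5, a subunit of the complexes that methylate histone H3 at lysine 4, and the ES cell transcription factor network. One comparison set 3 arrays of the rescue clone Wdr5R4 without doxycycline, called the Wdr5 knockdown here, against 2 arrays of a luciferase control with doxycycline, all in Aniv15 ES cells, which express the reverse tetracycline transactivator. The other comparison set 2 arrays of an Oct4 shRNA (the gene is Pou5f1) against 2 arrays of a GFP shRNA.

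All cells grew on feeder layers of primary mouse embryonic fibroblasts with LIF. The Wdr5 knockdown was 1 named clone. Cells of the Oct4 set were CCE or E14T, with no label saying which of these lines an array came from. The growth text lists doxycycline for every sample, so its absence in the Wdr5 knockdown rests on the sample titles and group label. Doxycycline and knockdown cannot be told apart in that comparison. The labels do not say that replicates were separate cultures, so p-values measure only the spread between these arrays, which may be technical.

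In mammals, Dnmt3a and Dnmt3b add methyl groups to unmodified DNA, aided by Dnmt3l, a relative with no catalytic activity of its own. Uhrf1 recognises the half-methylated DNA left by replication and brings Dnmt1, which copies the pattern to the new strand. Tet1 and Tet2 oxidise 5-methylcytosine as a step towards its removal, and Mbd3 is a subunit of the nucleosome remodelling and deacetylase complex NuRD. ES cells are known for de novo methyltransferase and Tet1 expression that changes as they leave pluripotency.

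The promoters of the members differ in their content of CpG, the dinucleotide that these enzymes act on, and a contrasting pair is shown because Dnmt3b and Dnmt3l encode partners in the same reaction. Sequences come from the RefSeq table of mouse build GRCm38.p6, in which all 8 members matched, with 15 annotated starts, and each window holds the 250 bases before a start. Every CpG is in capitals below.
Dnmt3b, chr2:153649199-153649448, plus strand: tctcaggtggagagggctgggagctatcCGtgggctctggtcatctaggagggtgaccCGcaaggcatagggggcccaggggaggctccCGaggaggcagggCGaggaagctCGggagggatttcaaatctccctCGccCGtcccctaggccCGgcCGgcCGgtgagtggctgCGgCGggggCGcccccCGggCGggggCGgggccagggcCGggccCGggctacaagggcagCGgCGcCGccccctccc
Dnmt3l, first of 3 annotated starts, chr10:78042037-78042286, plus strand: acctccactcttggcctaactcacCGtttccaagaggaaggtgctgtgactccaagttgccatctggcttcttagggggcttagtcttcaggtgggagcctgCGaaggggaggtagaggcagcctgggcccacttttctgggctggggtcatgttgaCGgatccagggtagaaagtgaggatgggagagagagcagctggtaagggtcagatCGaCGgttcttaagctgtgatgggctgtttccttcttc
The Dnmt3b window held 21 CpG, a number that 16.3% of the 32851 windows in the table reached, and the Dnmt3l window held 5, which 55.6% reached. The other windows of Dnmt3l held 4 and 3. Tet2 had 51, which 0.067% of windows reached, Tet1 had 15 and Mbd3 had 14, against a median of 6 over all windows. The windows of Dnmt3a held 38, 40 and 15, those of Dnmt1 2, 7 and 26, and those of Uhrf1 10 and 30.

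Short motifs of S phase and pluripotency factors were searched in the same windows on both strands. The E2F motif, searched as TTTCGCGC or TTTGGCGC, lay in windows of Dnmt1 and Uhrf1, the genes of maintenance methylation, and in 0.654% of all windows. The match is in capitals in these stretches, read 5′ to 3′ on the strand of the gene.
Dnmt1, chr9:20952824-20952853, minus strand: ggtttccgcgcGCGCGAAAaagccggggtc
Uhrf1, chr17:56304117-56304146, plus strand: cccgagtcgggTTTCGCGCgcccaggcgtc
The motif ended 211 bases before the third annotated start of Dnmt1 and 177 bases before the second start of Uhrf1. Those windows held 26 and 30 CpG, numbers that 9.59% and 5.94% of windows reached. The motif itself contains CpG or GC-rich letters, and the 0.654% is a share of windows of any CpG content. The octamer ATGCAAAT, recognised by Oct4 and its relatives, was in the windows of 0 members and in 1.6% of all windows, which says only that these letters are not in these windows.

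The shRNA targets were lower on the knockdown arrays, and each was also lower in the other knockdown. On the log2 scale Wdr5 was at -0.81 in the Oct4 knockdown (limma adjusted p = 0.0108). Pou5f1 was at -0.96 in the Wdr5 knockdown (limma adjusted p = 0.00448). Wdr5 intensities were 427 to 464 in the Wdr5 knockdown and 988 to 1097 in the luciferase control (log2 fold change -0.96, limma adjusted p = 0.000121), and Pou5f1 intensities were 297 to 305 in the Oct4 knockdown and 4137 to 4609 in the GFP control (-2.28, adjusted p = 0.000685). Mean intensity per array was 375 to 429 in the Wdr5 knockdown and 448 to 518 in the luciferase control, but 110.3 and 110.7 in the Oct4 knockdown and 278 to 344 in the GFP control. A probe was called above background with a detection score over 0.95, which 12156 to 13104 of 25697 probes had on arrays of the first comparison and 9020 to 11804 of 46643 on those of the second. Arrays of a group correlated at 0.978 to 0.996 over the genes tested. Changes below are differences of background-corrected log2 signals made equal in distribution by quantile normalisation within each set, so each is relative to the other genes on the array.

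Markers of ES cells and of other cell types moved with both knockdowns. Over all genes tested 38.2% were called higher and 30.5% lower in the Wdr5 comparison. The Oct4 comparison had 24.3% higher and 18.1% lower. Of the ES cell markers, 10 of 10 tested were lower in the Wdr5 knockdown, 1 of them, Fgf4, not above background there, with a summed linear signal of 26436 to 27074 on its arrays and 48796 to 51743 on luciferase arrays. In the Oct4 knockdown 6 of 7 tested ES cell markers were lower, with sums of 4360 to 5002 against 15083 to 19455 in the GFP control. Feeder fibroblast markers rose for 8 of 11 tested and fell for 2 in the Wdr5 knockdown (sums of 3943 to 4085 against 1585 to 1596 in the luciferase control), and Col1a2, Lum and Postn were not tested. Of those 8, Lox, Dcn and S100a4 were not above background on any luciferase array and could enter the fit only through the knockdown. On the Oct4 side 1 of 3 tested fibroblast markers rose, Pdgfra, which also marks primitive endoderm, with sums of 441 to 457 against 221 to 292. The other 11 markers, Col1a1 and Dcn among them, were not tested, for want of a probe or of 2 arrays above background. All 5 tested trophectoderm markers were higher in the Oct4 knockdown, with sums of 29647 to 34300.2 against 777 to 868 in the GFP control, where Gata3 was not above background, and 4 of 6 rose and 1 fell with Wdr5 knockdown, at 19858 to 20786 against 13320.1 to 13430.4 in the luciferase control. Primitive endoderm markers were higher for 5 of 5 tested in the Oct4 knockdown (3565 to 3789.9 against 1254 to 1381) and for 2 of 4 in the Wdr5 knockdown, where 1 was lower (2222 to 2531 against 772 to 788). Their part in the results below was not tested. In RNA from a whole culture, fewer cells of a type and less RNA per cell cannot be told apart.

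In the Wdr5 knockdown the DNA methylation genes moved in both directions. Dnmt3b was 1.37-fold higher and Mbd3 1.52-fold lower, and the fitted changes of Dnmt1, Uhrf1 and the probe representing Dnmt3l were within 0.14 of 0 on the log2 scale. Of the 8 members 7 had a probe in that set, with 11 probes in all. Dnmt1, Uhrf1, Dnmt3b, Dnmt3l and Mbd3 were tested, each above background on all 5 arrays. Of these 5, 1 was called higher and 1 lower at an adjusted p under 0.05, while 68.7% of the 10119 genes tested were called in either direction, 38.2% higher and 30.5% lower. The median log2 fold change of the 5 genes was 0.01, and that of all genes tested was 0.10.

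Among the maintenance genes, Dnmt1 had intensities of 1584, 1379 and 1355 in the Wdr5 knockdown, against 1505 and 1559.6 in the luciferase control. On the normalised log2 scale these were 10.60, 10.53 and 10.59 in the knockdown, against 10.60 and 10.42 in the control, and the groups overlapped. The log2 fold change was 0.07 ± 0.08 (SE), with a 95% interval of -0.14 to 0.27 and a limma adjusted p of 0.509. Uhrf1 also overlapped between groups, with intensities of 6421, 6376 and 5822 in the knockdown, against 6576 and 7167 in the control. After normalisation the log2 signals of Uhrf1 were 12.62, 12.71 and 12.68 in the knockdown, against 12.71 and 12.62 in the control. Its log2 fold change was 0.01 ± 0.07 (SE, limma adjusted p = 0.929), with a 95% interval of -0.17 to 0.19, and its second probe was not above background on any array.
The intervals leave room for changes of either sign in both genes. Their calls depended on the scaling: when arrays were scaled to a common median after the same background model, Dnmt1 was at 0.29 (limma adjusted p = 0.0200) and Uhrf1 at 0.24 (limma adjusted p = 0.0306). That scaling put the median of all genes at 0.19, and relative to that median Dnmt1 was at 0.10 and Uhrf1 at 0.04.

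Dnmt3b, the de novo methyltransferase, was higher in the Wdr5 knockdown by both of its probes. The probe that represented the gene read 9055, 8549 and 8174 in the knockdown, against 6699 and 8161 in the luciferase control. Normalised signals were 13.20, 13.20 and 13.26 in the knockdown, against 12.73 and 12.79 in the control, and every knockdown array was above both control arrays. The means were 13.22 ± 0.03 (SD, n = 3) and 12.76 ± 0.05 (SD, n = 2), a log2 fold change of 0.46 ± 0.07 (SE, limma adjusted p = 0.00159). A dimmer second probe, listed under the same transcript variant 4, read 159.8, 146.5 and 118.1 in the knockdown, against 89.4 and 118.0 in the control. It was 1.76-fold higher (log2 fold change 0.81 ± 0.10 SE, limma adjusted p = 0.000601 over all probes), in a probe fit where 35% of probes were called higher. Within each array the second probe minus the first was -5.68, -5.68 and -5.93 in the knockdown, against -6.15 and -6.09 in the control, without overlap and 0.35 higher on the log2 scale in the knockdown. The two-sided exact permutation p was 0.2, and 3 against 2 arrays cannot go below 0.1. Which probe changed more depended on the processing. In the authors' deposited table the first probe was at 0.53 and the second at 0.29, the other order. With an offset of 50 the second probe was at 0.65.

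Dnmt3l, the partner of the de novo enzymes, gave different answers by probe in the Wdr5 knockdown. The probe that represented the gene, listed under transcript variant 2, read 4727, 4492 and 3893 in the knockdown, against 5070.3 and 5872 in the luciferase control. Normalised signals were 12.20, 12.21 and 12.10 in the knockdown, against 12.32 and 12.29 in the control, so the knockdown arrays were lower without overlap. The log2 fold change of -0.14 ± 0.07 (SE) missed the threshold (limma adjusted p = 0.136), with a 95% interval of -0.32 to 0.04. The other probe, listed under transcript variant 1, read 3205, 3192 and 2798 in the knockdown, against 4935 and 5663 in the control. Its normalised signals were 11.63, 11.72 and 11.62 in the knockdown, against 12.27 and 12.24 in the control, again with no overlap. It was called 1.51-fold lower (log2 fold change -0.60 ± 0.07 SE, limma adjusted p = 0.000724 over all probes), in a fit where 33.7% of probes were called lower.
Within each array, the variant 1 probe minus the variant 2 probe of Dnmt3l was -0.57, -0.50 and -0.48 in the knockdown, against -0.06 and -0.06 in the luciferase control. This difference of the 2 probes was thus lower by 0.46 on the log2 scale in the knockdown with no overlap, and the two-sided exact permutation p was 0.1, the smallest that 3 against 2 arrays allow. In the authors' deposited table the variant 1 probe was also the one called, at -0.62 (adjusted p = 1.2e-05), with the variant 2 probe at -0.12 (adjusted p = 0.141). With the mean of both probes as the gene's value, Dnmt3l was at -0.37 (limma adjusted p = 0.00413). Under scaling to a common median the variant 2 probe was at 0.06, above 0 and not called.

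Mbd3, the NuRD subunit, was lower in the Wdr5 knockdown. Its intensities were 286, 228 and 288 in the knockdown, against 462 and 559 in the luciferase control. The normalised signals were 8.27, 8.09 and 8.47 in the knockdown, against 8.87 and 8.90 in the control, with no overlap and more spread among the knockdown arrays. Means were 8.28 ± 0.19 (SD, n = 3) and 8.88 ± 0.03 (SD, n = 2), and the log2 fold change was -0.61 ± 0.12 (SE, limma adjusted p = 0.00536). The authors' deposited table gave a smaller change of -0.35 (adjusted p = 0.000609).

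The remaining members could not be followed in the Wdr5 comparison. Dnmt3a, the other de novo methyltransferase, had 2 probes with detection scores of at most 0.242, and all of their intensities were below 0. The Tet2 probe read 6.0, 2.7 and 11.1 in the Wdr5 knockdown, against 12.8 and 12.9 in the luciferase control, with scores of 0.677 to 0.905, so it was not well above background on any array. Tet1 had no probe under any of its names in that set, so its response to the Wdr5 knockdown was not analysed here.

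**Figure D1:**
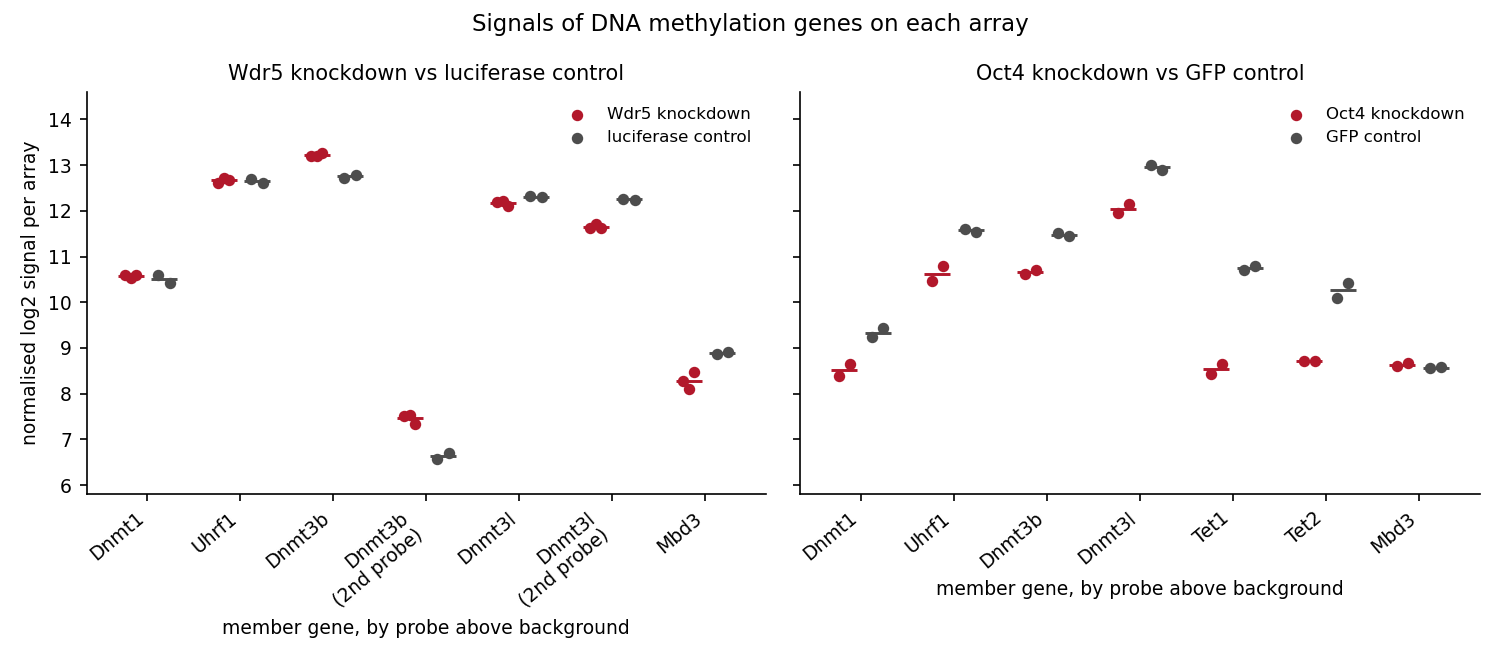
Normalised log2 signal per array (y axis) of each member probe above background (x axis), with knockdown arrays in red left of control arrays in grey and lines at the group means. Dnmt3b lay higher on every Wdr5 knockdown array than on the luciferase arrays, and in the Oct4 set every plotted gene except Mbd3 lay lower on both knockdown arrays. The share of all genes separated in this way was not counted. Heights of different probes are not comparable with each other.

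In the Oct4 knockdown the 6 writers, copiers and erasers of DNA methylation that could be tested were lower. Tet1 was 4.62-fold lower, Tet2 2.93-fold lower, and Dnmt1, Uhrf1, Dnmt3b and Dnmt3l were 1.76-fold to 1.92-fold lower, while Mbd3 was at 0.07 on the log2 scale and not called. All 8 members had a probe in that set, with 13 probes in all, and 7 genes were tested, each above background on all 4 arrays. Of these 7, 6 were called lower and 0 higher, while 42.4% of the 9275 genes tested were called in either direction, 24.3% higher and 18.1% lower. The 2 that were at least 2-fold lower were Tet1 and Tet2, as were 7.35% of all genes. The median log2 fold change of the 7 genes was -0.90, and that of all genes tested was -0.02. The calls of Dnmt1, Dnmt3b and Dnmt3l ended without Oct4 knockdown replicate 1 and also without replicate 2. That of Uhrf1 ended without replicate 1 alone, and those of Tet1 and Tet2 held without either. Over all genes 805 and 1272 were called without these arrays, in place of 3930.

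Tet1, the dioxygenase known for high expression in ES cells, had the largest fitted change of the 7 members tested. Its probe read 171 and 199.7 in the Oct4 knockdown, against 2814 and 2306 in the GFP control. Normalised signals were 8.42 and 8.66 in the knockdown, against 10.71 and 10.78 in the control, far apart relative to the spread within groups. The means were 8.54 ± 0.17 (SD, n = 2) and 10.75 ± 0.05 (SD, n = 2). This gave a log2 fold change of -2.21 ± 0.15 (SE, limma adjusted p = 0.000809), with a 95% interval of -2.59 to -1.82. By absolute change Tet1 ranked 246 of the 9275 genes. The call held in every alternative tried, at values of -2.34 to -1.40, the smallest being that of the authors' deposited values (adjusted p = 0.000277 in their table).

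Tet2, a second dioxygenase of the family, read 212 and 209.7 in the Oct4 knockdown, against 1838 and 1796 in the GFP control. Its normalised signals were 8.72 and 8.72 in the knockdown, against 10.10 and 10.43 in the control, without overlap. The log2 fold change was -1.55 ± 0.17 (SE, limma adjusted p = 0.00224), rank 675 by absolute change. Its range over the alternatives was -1.70 to -0.95, all called. A second Tet2 probe was not above background on any array, at -0.1 and 3.4 in the knockdown, against 73.1 and 57.9 in the control.

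Both maintenance genes were lower after Oct4 knockdown. Dnmt1 read 166.5 and 198 in the knockdown, against 1010.0 and 873 in the GFP control, and its normalised signals were 8.39 and 8.65 in the knockdown, against 9.24 and 9.43 in the control. The log2 fold change was -0.82 ± 0.17 (SE, limma adjusted p = 0.0132), with a 95% interval of -1.23 to -0.40. Neither gene's groups overlapped. Uhrf1 read 706 and 871 in the knockdown, against 5090.4 and 3962 in the control, and 10.47 and 10.78 after normalisation in the knockdown, against 11.60 and 11.54 in the control. Its log2 fold change was -0.94 ± 0.17 (SE, limma adjusted p = 0.00824). Without Oct4 knockdown replicate 1 the changes were -0.69 for Dnmt1 (limma adjusted p = 0.147) and -0.79 for Uhrf1 (limma adjusted p = 0.107), and without replicate 2 Dnmt1 was at -0.95 (limma adjusted p = 0.0604).

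The de novo genes Dnmt3b and Dnmt3l were lower as well. Dnmt3b read 775 and 814 in the Oct4 knockdown, against 4794 and 3664 in the GFP control. Normalised signals of Dnmt3b were 10.62 and 10.70 in the knockdown, against 11.51 and 11.44 in the control, a log2 fold change of -0.81 ± 0.14 (SE, limma adjusted p = 0.00762). Dnmt3l, here measured by a probe listed under transcript variant 2, read 2046 and 2395 in the knockdown, against 12934 and 10006 in the control. Its normalised signals were 11.95 and 12.14 in the knockdown, against 13.01 and 12.90 in the control, and the log2 fold change was -0.90 ± 0.15 (SE, limma adjusted p = 0.00708). Groups did not overlap for either gene. Without replicate 1 of the Oct4 knockdown Dnmt3b was at -0.77 (limma adjusted p = 0.112) and Dnmt3l at -0.80 (limma adjusted p = 0.106), and without replicate 2 they were at -0.85 (limma adjusted p = 0.0719) and -0.98 (limma adjusted p = 0.0528). Dnmt3a had 3 probes with detection scores of at most 0.674, so it was not well above background here either.

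Mbd3 was the 1 tested member not called in the Oct4 set. It read 197 and 201 in the knockdown, against 619 and 478 in the GFP control, on knockdown arrays that were dimmer overall. After normalisation its signals were 8.60 and 8.66 in the knockdown, against 8.56 and 8.57 in the control. Its groups did not overlap either, so a lack of overlap between so few arrays does not mark a called gene. The share of all genes without overlap was not counted in either set. The log2 fold change was 0.07 ± 0.14 (SE, limma adjusted p = 0.717), with a 95% interval of -0.28 to 0.41.

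**Figure D2:**
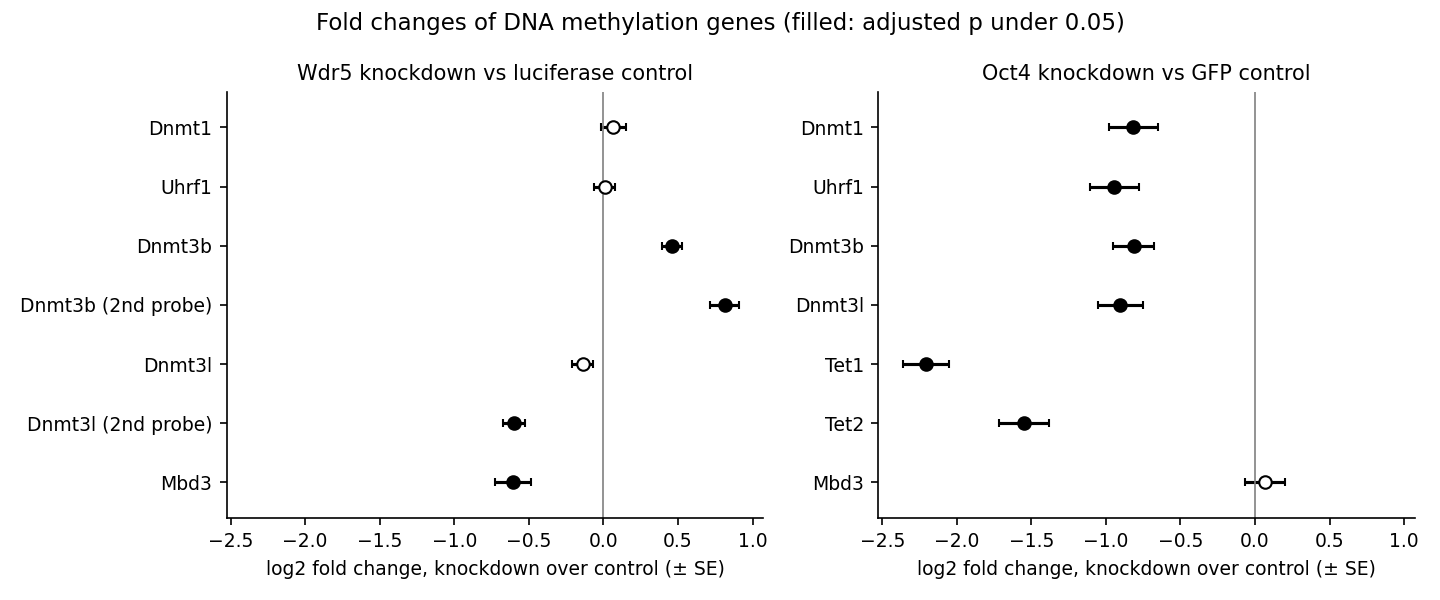
Log2 fold change of each member probe, knockdown over control (x axis), with bars of 1 SE and filled points at an adjusted p under 0.05. In the Wdr5 comparison points lie on both sides of 0 between -0.61 and 0.81, and in the Oct4 comparison 6 of 7 lie between -2.21 and -0.81.

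The difference between the knockdowns was tested for the 5 genes measured in both sets, as the Wdr5 change minus the Oct4 change over all 9 arrays. All 5 differed, in a fit where 56.8% of 6172 genes did. Dnmt3b differed by 1.27 ± 0.12 on the log2 scale (SE, limma adjusted p = 4.55e-05), with a log2 fold change of 0.46 in the Wdr5 comparison and -0.81 in the Oct4 comparison. Uhrf1 differed by 0.95 ± 0.15 (limma adjusted p = 0.000908), Dnmt1 by 0.88 ± 0.16 (limma adjusted p = 0.00181) and Dnmt3l by 0.77 ± 0.14 (limma adjusted p = 0.00143). The size for Dnmt3l depended on the probe. It used the variant 2 probe in the Wdr5 set, where the variant 1 probe was at -0.60, and it was 0.54 with the mean of all probes. The difference was not tested with the variant 1 probe alone. Mbd3 differed the other way, by -0.67 ± 0.17 (limma adjusted p = 0.00789), being lower in the Wdr5 knockdown and not called in the Oct4 knockdown. The sets shared no arrays and used different beadchips and cell lines, so a difference between knockdowns, lines or probes cannot be told apart.

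**Figure D3:**
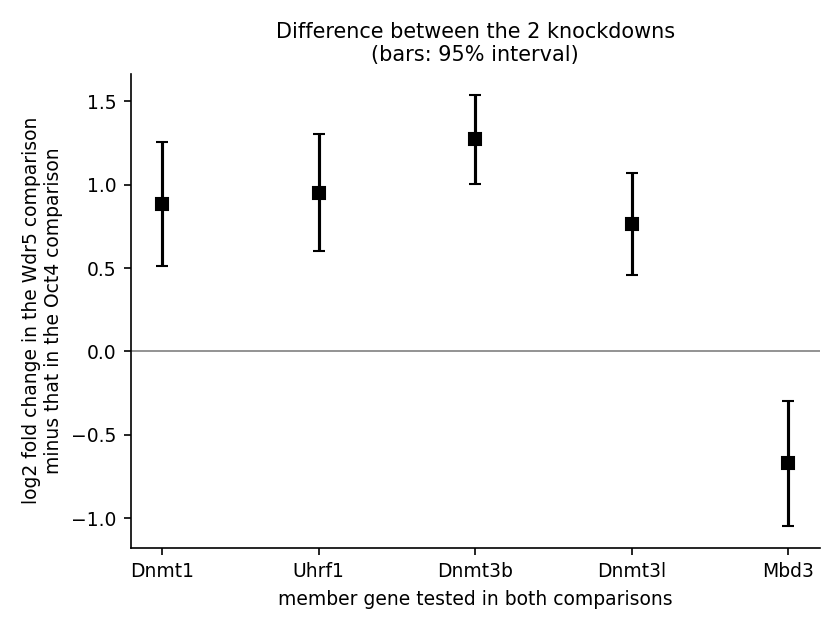
Log2 fold change in the Wdr5 comparison minus that in the Oct4 comparison (y axis) for the 5 members tested in both, with bars of the 95% interval. Dnmt1, Uhrf1, Dnmt3b and Dnmt3l lie above 0, between 0.77 and 1.27, and Mbd3 lies at -0.67.

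The genes whose signals followed each member most closely over the 9 arrays, with each set centred on its own mean, were found among 6172 genes by Pearson correlation. Dnmt3b was followed by Rbm5 (r = 0.997), Srsf11 (0.993) and Robo4 (0.992), and Dnmt3l by Bzw2 (0.995), Egr1 (0.995) and Mthfd1 (0.994). Uhrf1 was followed by 1700030K09Rik (0.994), Cox7a2 (0.993) and B9d1 (0.992). Dnmt1 was followed by Ciapin1 (r = 0.99), Snai3 (0.988) and Rrp15 (0.986), and Mbd3 by Cep83 (0.976), Slc35a1 (0.965) and Pdk4 (0.961). The 9 points fall into 4 groups and share their normalisation, so these values are a description only.

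Genes that work with the maintenance enzymes included several that fell in each comparison. Over all genes 30.5% were called lower and 38.2% higher in the Wdr5 comparison, and 18.1% and 24.3% in the Oct4 comparison. In the Wdr5 knockdown 3 of 7 tested of 9 listed fell and 1 rose, with a median log2 fold change of -0.28. The 3 were Dppa3, a binder of Uhrf1 that limits methylation in oocytes and early embryos (-2.45 ± 0.10 SE, limma adjusted p = 2.00e-05), Cdca7, an activator of the remodeller Hells (-0.99 ± 0.07), and Usp7, the deubiquitinase bound to Dnmt1 and Uhrf1 (-0.90 ± 0.07). The gene that rose, Trdmt1, a methyltransferase of transfer RNA, was not above background on the luciferase arrays and at least 1.23-fold higher, and its call ended with any 1 knockdown array left out. With the mean of all probes of a gene, 5 fell. After Oct4 knockdown 4 of 8 fell and 1, Uhrf2, rose, with a median of -0.63. Hells, the remodeller that opens chromatin for methylation, changed by -1.52 ± 0.19 (limma adjusted p = 0.00346), Cdca7 by -1.34 ± 0.17, Lig1, the DNA ligase of the replication fork, by -1.21 ± 0.15 and Cdca7l by -0.94 ± 0.25. Without Oct4 knockdown replicate 1 the count of those that fell was 2. The count that rose was 0 with either knockdown array left out, under scaling to a common median, with the mean of all probes and with the replicate number as a block, and 2 without GFP control replicate 1.

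Dnmt1 and Uhrf1 are known to be transcribed with the genes of S phase, so a list of those was set beside them. Among all genes 30.5% were called lower in the Wdr5 comparison. In the Wdr5 knockdown 11 of 13 tested S phase genes of 16 fell and 0 rose, with a median of -0.61, led by the replication helicase genes Mcm6 (-2.23 ± 0.09 SE, limma adjusted p = 2.06e-05), Mcm3 (-1.49 ± 0.08) and Mcm7 (-1.22 ± 0.15). Their summed signal was 16591 to 17113 in the Wdr5 knockdown and 26143 to 27235 in the luciferase control, while Dnmt1 and Uhrf1 were not called in that comparison. With Oct4 knockdown, where 18.1% of all genes were called lower and 24.3% higher, 8 of 13 fell and 1, Rrm1, rose, with a median of -0.68. There Cdc45, a cofactor of the helicase, was not above background on the knockdown arrays and was at least 3.33-fold lower, Gins1 changed by -1.58 ± 0.22 and Tyms, thymidylate synthase, by -1.29 ± 0.15 (limma adjusted p = 0.00283). Sums were 8877 to 9538 in the Oct4 knockdown and 14389.9 to 15281 in the GFP control. The count that fell was 3 without Oct4 knockdown replicate 1 and 4 without replicate 2.

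Genes of oxidation and base excision, which finish the removal that Tet enzymes start, moved in both directions in the Wdr5 knockdown. There 30.5% of all genes were called lower and 38.2% higher. Of 9 tested of 12, 5 fell and 2, Cxxc4 and Xrcc1, rose, with a median of -0.53, and the count that rose was 1 without luciferase replicate 2. Tdg, the glycosylase that excises oxidised methylcytosine, changed by -1.50 ± 0.13 (SE, limma adjusted p = 0.000206), Apex1, the endonuclease that follows it, by -1.28 ± 0.10, and Apobec1, a cytidine deaminase, by -0.88 ± 0.11, and Parp1 and Smug1 fell too. After Oct4 knockdown, where 18.1% of all genes were called lower, 2 of 5 tested fell and 0 rose, and the median was 0.02. Those were Mbd4, a glycosylase with a methyl-CpG binding domain (-1.55 ± 0.14, limma adjusted p = 0.00149), and Parp1, a sensor of DNA breaks (-1.09 ± 0.15), and the count was 1 without Oct4 knockdown replicate 1. Mbd4 was at -0.09 in the Wdr5 knockdown and not called (limma adjusted p = 0.529), and Tdg was not tested in the Oct4 set.

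The list of methyl-CpG readers also holds Mbd5 and Mbd6, counted for their related domain and not as known binders of methylated CpG. Of its 9 genes 7 were tested, and 6 were called higher and 0 lower in the Wdr5 knockdown, where 38.2% of all genes were called higher. The median was 0.56 from fitted values and 0.53 once bounds replaced them for undetected genes. Zbtb38, a zinc finger protein that binds methylated CpG, was at least 2.92-fold higher, Mbd6 at least 1.98-fold and Mbd5 at least 1.42-fold. These 3 were not above background on any luciferase array, so they could enter the fit only through the knockdown and their direction adds no support. With the mean of all probes of a gene 5 were called higher and 1 lower. Zfp57, which keeps methylation at imprinted loci (0.56 ± 0.08), and Zbtb33, known as Kaiso (0.50 ± 0.12), were above background on all 5 arrays. Of the 3 genes of this list tested in the Oct4 set, Mbd6 among them, 0 were called, with a median of -0.14.

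NuRD, the complex of Mbd3, moved in both directions in the Wdr5 knockdown, with 3 of 7 tested of 12 higher and 2 lower, and a median of 0.18. These counts are near the shares over all genes, of which 38.2% were called higher and 30.5% lower. Rbbp7, a histone chaperone subunit, changed by -2.25 ± 0.11 (SE, limma adjusted p = 2.97e-05), Hdac2, a deacetylase, by 1.02 ± 0.08 and Gatad2b, above background on 1 of 2 luciferase arrays, by 1.01 ± 0.15, while Mta2 also rose and Mta3 also fell. The count that fell was 1 under both scalings to a common median and with the mean of all probes. After Oct4 knockdown 1 of 10 was lower, Rbbp4 at -0.90 ± 0.16 (limma adjusted p = 0.00799), and 0 were higher, with a median of 0.08. Of all genes 18.1% were called lower there. The Rbbp4 call ended with either knockdown array left out.

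Of the heterochromatin partners, 4 of 9 tested of 12 rose (Daxx, Ehmt2, Suv39h1 and Trim28) and 3 fell in the Wdr5 knockdown, with a median of 0.04. Over all genes 38.2% were called higher and 30.5% lower there. The 3 that fell were Setdb1, a histone H3 lysine 9 methyltransferase (-0.77 ± 0.09 SE, limma adjusted p = 0.000691), Smchd1, a protein of the inactive X chromosome (-0.76 ± 0.09), and Cbx5, heterochromatin protein 1 alpha (-0.70 ± 0.09). Oct4 knockdown arrays had 4 of 8 higher, Smchd1 among them, and 1, Ehmt1, lower, with a median of 0.39. In that set 24.3% of all genes were called higher and 18.1% lower. Suv39h1, the methyltransferase of pericentric heterochromatin, was not above background on the GFP arrays and at least 1.99-fold higher. It could enter the fit only through the knockdown, so its direction adds no support. Ehmt2 (G9a), above background on 1 of 2 GFP arrays, was at 1.05 ± 0.19 and Daxx, a chaperone of histone H3.3, at 0.88 ± 0.16 (limma adjusted p = 0.00896). These Oct4 counts were 0 with either knockdown array left out.

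Methyl donor metabolism supplies S-adenosylmethionine to the Dnmt enzymes. In the Wdr5 knockdown 4 of 8 tested of 10 fell and 1 rose, with a median of -0.44. Over all genes 30.5% were called lower and 38.2% higher there, and 18.1% and 24.3% in the Oct4 set. Mat2a, which makes S-adenosylmethionine, was the gene that rose, by 1.14 ± 0.07 (SE, limma adjusted p = 5.41e-05), whereas Shmt1, a serine hydroxymethyltransferase, changed by -1.24 ± 0.12 and Gnmt, which consumes the donor, was at least 1.85-fold lower and not above background on the knockdown arrays; Ahcyl1 and Mat2b fell too. The count that rose was 0 with the mean of all probes of a gene, so the Mat2a call rested on its brightest probe, and 2 without knockdown replicate 2 and under both scalings to a common median. Oct4 knockdown arrays had 4 of 8 lower and 1, Ahcyl1, higher, with a median of -0.68, led by Shmt1 (-1.59 ± 0.17, limma adjusted p = 0.00219), Mthfd1 (-1.23 ± 0.16) and Shmt2 (-0.90 ± 0.16), with Ahcy as the fourth. The number that fell there was 1 without replicate 1 of the knockdown and 2 without replicate 2.

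Germline genes whose promoters are methylated in somatic cells were followed as possible targets of the enzymes. In the Wdr5 knockdown 6 of 7 tested of 14 were called lower and 0 higher, with a median of -1.21. Over all genes 30.5% were called lower there, and 18.1% in the Oct4 set. Of the 6, Brdt and Tex101 were not above background on any knockdown array and could enter the fit only through the control: Brdt was at least 1.31-fold lower, and the bound of Tex101 allows no fold. Tex19.1, expressed in germ cells and in ES cells, changed by -2.39 ± 0.08 (SE, limma adjusted p = 1.60e-05). Piwil2 at -1.56 ± 0.25 and Dazl at -1.40 ± 0.08, genes of the germ cell RNA machinery, each had a signal above background on only 2 of 3 arrays of the knockdown. The Oct4 set had 2 of 3 tested lower, Tex19.1 at -1.34 ± 0.15 (limma adjusted p = 0.00247) and Ddx4, the germ cell helicase Vasa, at -0.63 ± 0.15 with 1 of 2 knockdown arrays above background. With either Oct4 knockdown array left out the count was 1. DNA methylation itself was not measured in these arrays.

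**Figure D4:**
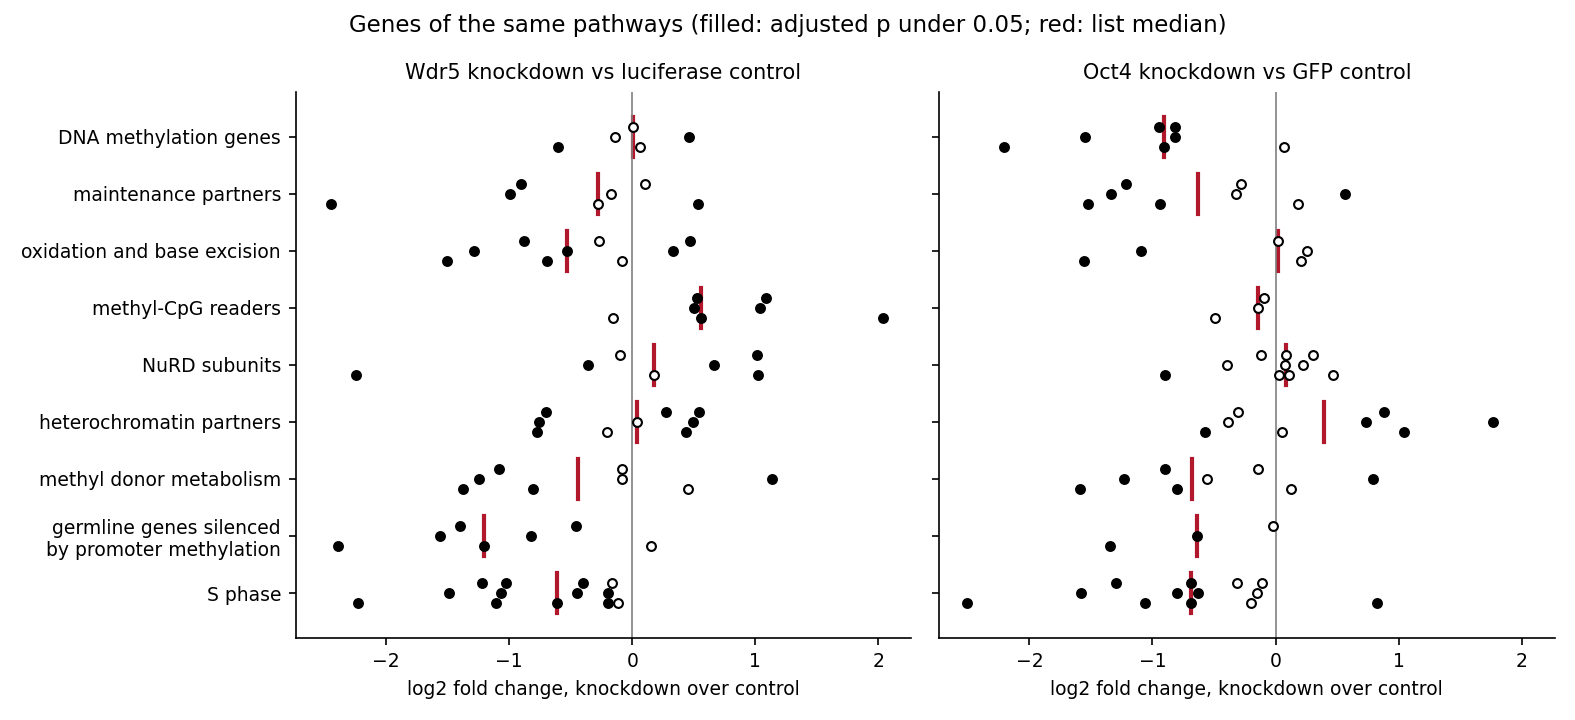
Log2 fold change, knockdown over control (x axis), of every tested gene in each list (rows), filled where the adjusted p was under 0.05, with the list median in red. Genes listed as methyl-CpG readers lie mostly right of 0 in the Wdr5 comparison, with a median of 0.56. S phase genes lie mostly left of 0 in both, with medians of -0.61 and -0.68. Points of genes below background in a group are fitted values, for which the text gives bounds.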

How the data were processed

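RNA levels were measured on 9 one-colour Illumina beadchips, and no value is corrected for the number of cells. The authors deposited, for each array, a linear intensity per probe that falls below 0 for dim probes and a detection score, a fraction from 0 to 1. The authors also deposited normalised log2 values and a table that gives each comparison's log2 fold change beside its p-value. The submitters' processing notes name limma; how background was removed and arrays normalised is not given in the sources used here. For the Oct4 set those log2 values served as an alternative, and for the Wdr5 set their probe identifiers had no match.

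Limma 3.58.1 under R 4.3.3 was used, whose neqc function corrected background from the detection scores, added an offset of 16, quantile-normalised each set and took log2; the offset draws changes of dim probes towards 0. Probes with a score above 0.95 on at least 2 arrays were kept, 13529 of 25697 and 11324 of 46643, and each gene took the brightest of its kept probes, which left 10119 and 9275 genes. Names came from accessions matched to a RefSeq table of GRCm38.p6, which named 24202 and 25596 probes, with the tables' symbols for the rest. Tests were two-sided, lmFit and eBayes with a term for group alone, adjusted by Benjamini-Hochberg over all genes, and called at 0.05. A second fit held all kept probes. A bound ("at least") sets the bright group's mean against the higher, per dim array, of the gene's own signal and the lowest detected signal. A gene above background in a single group could enter the fit only through that group. Its direction adds no support to a count.

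All 8 members were named, and from each list and comparison up to 3 called genes with the largest absolute change; Trdmt1, Rrm1, Zfp57, Zbtb33 and the further genes named beside a count of 5 or fewer were added after their values were seen. A further list gene is not reported by name here. The members and lists were chosen with earlier results of these data known. Same-numbered arrays did not deviate together: the correlation of deviations from group means was -0.03 and -0.01 for Wdr5 and luciferase arrays and -0.36 for Oct4 and GFP arrays, and the numbers were not taken as pairs. Opposite-numbered Oct4 and GFP arrays gave 0.36, the same size by construction with 2 arrays a group. What these arrays shared was not tested. Alternatives were other scalings, offsets, filters, variance models and probe choices, each array left out, and the replicate number as a block.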

Additional observations from a re-analysis of the deposited data

Results flagged for a closer look

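The change of 5 members differed between the knockdowns by a test of the difference itself (limma, Wdr5 change minus Oct4 change on the log2 scale), and each call held in the 13 alternatives tried. Dnmt3b differed by 1.27, with a 95% interval of 1.01 to 1.54. Uhrf1 differed by 0.95 (0.60 to 1.30), Dnmt1 by 0.88 (0.51 to 1.25) and Dnmt3l by 0.77 (0.46 to 1.07). The Dnmt3l value is that of its variant 2 probe, and it was 0.54 with the mean of all probes. Its variant 1 probe alone was not tried. Mbd3 differed by -0.67 (-1.05 to -0.30). No group had the 4 arrays needed to look for a single array far from the others.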

How the results depend on the processing

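No called member gene or member probe changed sign, and genes of the lists were followed as counts alone. Of the uncalled members of the Wdr5 set, Dnmt3l was at 0.10 with floored intensities and at 0.06 under scaling to a common median, and without luciferase replicate 2 Dnmt1 and Uhrf1 were at -0.03 each. In the Wdr5 comparison 2 members were called, and 4 were called under scaling to a common median, with or without the background model, where Dnmt1 and Uhrf1 joined. The floored version put Dnmt1 at 0.33 and Uhrf1 at 0.27, with the median of all genes at 0.21 in place of 0.10. Dnmt3l was called with a trended, robust variance (-0.14, limma adjusted p = 0.0338). Leaving out each array in turn gave 2 to 2 members called in the Wdr5 set and 2 to 6 in the Oct4 set, where 6 were called with all arrays. The same runs gave 5756 to 6690 genes called in the Wdr5 set and 805 to 4527 in the Oct4 set, 2 to 6 member probes called in the Oct4 set and 4 to 4 in the Wdr5 set, with the lone array of a group assumed to vary like the others. With the replicate number as a block, the pairing left 2 and 6 members called, with 6432 and 3305 genes called; Dnmt3b was at 0.44 (limma adjusted p = 0.0162) in the Wdr5 set, and no member's call changed. With the numbers crossed in the Oct4 set, 4719 genes and 6 members were called. Calls lost with an array left out may reflect fewer arrays, and no other cause was tested. No header named a slide or scan batch, so that block was not run, and the authors' per-array log2 values were run for the Oct4 set alone. Genes below background, Dnmt3a among them, have no value here, and 2 or 3 arrays a group limit the precision.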
